A study of Mus musculus with 12 samples.

Results

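The genes described here are 32 genes of Kupffer cells and other macrophages, chosen by name, and all 32 were present among the 16116 gene symbols of the deposited table. They were followed in mouse liver cells with activated YAP, a coactivator held in check by the Hippo kinases, and with 1 or both alleles of Sox9, a transcription factor gene, deleted. There were 12 libraries in 6 groups of 2. Mice were injected at 3 weeks of age with adeno-associated virus serotype 2/8 whose cargo is expressed from TBG, a hepatocyte promoter, so the agents act in hepatocytes and not in macrophages. In the YAP experiment, Sox9 fl/fl mice (Sox9-null YAP group) and Sox9 fl/+ mice (Sox9-heterozygous YAP group) received AAV2/8-TBG-Cre together with AAV2/8-TBG-YAP S127A-P2A-GFP, which makes an activated form of YAP and green fluorescent protein (GFP). Their control was wild type mice given AAV2/8-TBG-GFP (wild type GFP control), and cells were sorted 3 weeks after injection. In the Mst experiment every mouse carried Mst1 fl/fl, Mst2 fl/fl and ROSA26-lsl-TdTomato, that is, floxed Hippo kinase genes and a Cre-dependent red reporter. Sox9 fl/fl (Sox9-null Mst group) and Sox9 fl/+ (Sox9-heterozygous Mst group) animals of this kind received AAV2/8-TBG-Cre. The floxed GFP control had no floxed Sox9 allele listed and received AAV2/8-TBG-GFP, and sorting followed 4 weeks after injection. Control mice received no Cre, so every comparison with a control holds Cre, Sox9 deletion and YAP activation together. The sources used here give neither strain and sex nor the number of animals per library, and p-values therefore measure the spread between libraries, which may be technical.

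Kupffer cells are the resident macrophages of the liver sinusoids, where they remove particles, microbes and old red cells from portal blood. Like other macrophages they depend on signalling through the receptor CSF1R, whose ligands are CSF1 and IL-34, and on the transcription factor PU.1, encoded by Spi1. They carry CD45, the leukocyte antigen encoded by Ptprc, and the hepatocytes of this series were sorted to be negative for CD45 and for the biliary antigen Epcam. Several of the 32 genes, such as the haem oxygenase gene Hmox1 and genes of lysosomal proteases, are also expressed outside the macrophage lineage. In sorted bulk RNA, fewer cells of a type and less RNA per cell cannot be told apart.

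The promoters of 4 members are shown because their genes stand for the patterns described below. Mpeg1 was higher in all 4 activated groups, Ctsc was lower in both Mst groups, Cd68 was higher in the Sox9-null Mst group, and Clec4f is the lectin gene that defines Kupffer cells. Sequences run 5′ to 3′ on the sense strand from 250 bases before to 50 after the gene start (RefSeq, GRCm38.p6). Capitals mark the PU.1 box GAGGAA on either strand. The TEAD core GGAATG, the motif of the DNA-binding partners of YAP, was searched on both strands too and was in none of the 4. The motifs share the letters GGAA, but no match overlapped another in these windows.
Mpeg1, chr19:12460520-12460819, plus strand: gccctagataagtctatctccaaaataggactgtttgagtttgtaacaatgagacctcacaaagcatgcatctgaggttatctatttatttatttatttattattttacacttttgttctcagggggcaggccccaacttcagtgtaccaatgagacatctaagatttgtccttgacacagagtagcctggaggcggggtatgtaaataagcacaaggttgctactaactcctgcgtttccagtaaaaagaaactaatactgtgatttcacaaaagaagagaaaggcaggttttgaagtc
Ctsc, chr7:88277835-88278134, plus strand: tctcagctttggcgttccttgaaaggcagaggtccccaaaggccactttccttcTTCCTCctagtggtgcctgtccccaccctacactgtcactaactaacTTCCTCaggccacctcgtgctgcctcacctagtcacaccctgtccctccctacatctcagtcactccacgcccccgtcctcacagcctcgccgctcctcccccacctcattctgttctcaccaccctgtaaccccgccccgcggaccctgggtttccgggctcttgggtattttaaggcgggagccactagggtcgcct
Cd68, chr11:69666121-69666420, minus strand: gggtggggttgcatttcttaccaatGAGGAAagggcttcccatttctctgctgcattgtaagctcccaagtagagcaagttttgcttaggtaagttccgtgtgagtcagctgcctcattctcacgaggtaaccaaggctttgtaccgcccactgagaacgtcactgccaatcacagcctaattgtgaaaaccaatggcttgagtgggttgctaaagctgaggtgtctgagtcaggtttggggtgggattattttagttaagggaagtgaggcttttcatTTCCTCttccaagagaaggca
Clec4f, chr6:83656067-83656366, minus strand: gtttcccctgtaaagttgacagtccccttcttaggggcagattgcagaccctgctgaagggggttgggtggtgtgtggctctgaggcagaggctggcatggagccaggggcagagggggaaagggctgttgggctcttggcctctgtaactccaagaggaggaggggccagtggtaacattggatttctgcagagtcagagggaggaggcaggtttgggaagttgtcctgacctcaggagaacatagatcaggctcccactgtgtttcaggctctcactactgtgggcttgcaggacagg

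Promoters were listed for 24 of the 32 members, 29 sequences in all. The PU.1 box was in 17 of these 29 (58.6%), against 28.3% of all 32851 listed promoters of the same length. The TEAD core was in 3 of 29 (10.3%, in Lgmn, Ms4a7 and Slc11a1), against 14.7% of all. A match of these letters is a description of the sequence and not a binding site.

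The deposited unit was log2 CPM, that is, counts per 1000000 reads on a log2 scale. The panel reads 1 amplicon per gene, whose place the sources used here do not give, so levels of different genes are not compared. Read depth is not known. As a check of the labels, Sox9 lay between 2.28 and 2.62 log2 CPM in Sox9-null YAP libraries, 4.41 and 5.28 in Sox9-heterozygous YAP libraries, and 3.59 and 3.90 in wild type GFP libraries. In the Mst experiment it lay between 1.29 and 1.41 in Sox9-null libraries, 6.0 and 6.47 in Sox9-heterozygous libraries, and 3.13 and 4.33 in floxed GFP libraries. Stk4, the gene of Mst1, lay between 4.09 and 4.74 in activated Mst libraries and between 4.82 and 4.89 in floxed GFP libraries. Stk3, the gene of Mst2, lay between 3.98 and 4.45 in activated Mst libraries and between 3.78 and 4.04 in floxed GFP libraries, and whether its amplicon is in the deleted part is not known. Hepatocyte genes were abundant, with Alb between 14.86 and 16.03 log2 CPM over the libraries. Linear sums ran from 938683 to 1011693 in activated libraries and from 879620 to 920020 in GFP libraries. The means of the 2 GFP controls were equal to within 0.05 for 98.9% of the tested genes, and the difference among members reached 0.08, so the controls could not be compared with each other. As far as a common step in the differences between paired libraries of a gene shows, its deviations from the group means had been multiplied by 1 factor (median 1.87 over 14750 genes). Group means and the sign of a difference between 2 libraries do not depend on that factor, but SDs, SEs, p-values and the size of a difference between libraries do. Among the members it ran from 0.90 for Cd14 to 3.30 for C1qc, with 1.53 for Mpeg1 and 2.99 for Clec4f. In the Mst experiment the mean of the 3 libraries numbered 1 and that of the 3 numbered 2 were equal to within 0.05 for 99.9% of the tested genes (15.6% in the YAP experiment), and differed by at most 0.0301 for the members. The 3 pair differences of a gene there sum to about 0 and hold 2 independent values, which the test does not take into account.

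Of the 32 members, 27 passed the filter of log2 of at least 1 (2 CPM) in at least 2 libraries and were tested. The 5 others stayed below 1 in all 12 libraries. They were Timd4 and Cd163, receptor genes of resident macrophages (highest value 0.67 and 1.0), Fcgr1, a high-affinity Fc receptor gene (0.75), the membrane protein gene Ms4a7 (-0.72) and Aif1, which encodes the actin-binding protein IBA1 (0.89). Ms4a7 had identical values, to within 0.000001, in both libraries of 5 of the 6 groups. Group means were fitted with limma over all 12 libraries, and a gene was called at a Benjamini-Hochberg adjusted p under 0.05 over all 10681 tested genes. In the text, ± is the SE after a change and the SD of 2 libraries after a level.

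Among the 27 tested members, 5 rose and 1 was lower in the Sox9-null Mst group against the floxed GFP control, where 7.76% of all tested genes were called (6.88% higher and 0.88% lower). In the Sox9-heterozygous Mst group 1 rose and 1 fell, with 4.25% of all genes called (3.45% higher and 0.796% lower). Mpeg1 alone rose in the Sox9-null YAP group, with 7.12% of all genes called (6.64% higher and 0.477% lower). It alone rose in the Sox9-heterozygous YAP group too, with 1.57% of all genes called (1.4% higher and 0.169% lower). The Mst comparisons share the floxed control libraries and the YAP comparisons share the wild type libraries. Averaged over the 4 comparisons, with 8 activated against 4 GFP libraries, 6 members rose and 1 fell, with 13.8% of all genes called (12.3% higher and 1.49% lower). The means of both controls were equal to within 0.05 for 98.9% of the tested genes, so the 4 GFP libraries may not be independent controls. The test of the average does not take this into account, and its SEs and p-values may be too small. Statements that set libraries across both experiments carry the same limit.

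Over all 32 members, with no filter on low values, 30 had positive changes in the Sox9-null Mst group, with a median of 0.90 log2. Over all 16116 genes of that comparison 60.2% were positive and the median was 0.07. In the Sox9-heterozygous Mst group 26 were positive with a median of 0.60, against 53.3% and 0.01 over all genes. In the Sox9-null YAP group 29 were positive with a median of 0.71, against 65.8% and 0.09. In the Sox9-heterozygous YAP group 21 were positive with a median of 0.13, against 56.2% and 0.03, and after quantile normalization the median of the tested members there was -0.10. The share of positive values was thus above that of all genes in 3 groups and nearer to it in the Sox9-heterozygous YAP group, and few members passed the test.

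More members were called when the deviations were divided by the factor of each gene. Most members had a factor above the median of 1.87 over all genes (Clec4f 2.99, Marco 3.23, Ptprc 3.28), so the division reduced their spread more. Their gain in calls therefore cannot be set directly against that of all genes. The Sox9-null Mst group then had 18 called (26.4% of all genes called), the 12 added being Clec4f, Cd5l, Vsig4, Marco, C1qb, Lyz2, Hmox1, Laptm5, Ptprc, Tyrobp, Slc11a1 and Fcer1g. The Sox9-heterozygous Mst group had 7 (19.8% of all genes called), with Csf1r, Lyz2, Clec4f, Fcer1g and Cd68 added. In the Sox9-null YAP group 13 were called (27.8% of all genes called), with Lgmn, Cd74, Csf1r, Cybb, Irf8, Cd5l, Laptm5, Ptprc, Clec4f, Slc11a1, Fcer1g and Cd68 added. In the Sox9-heterozygous YAP group 3 were called (11.6% of all genes called), with Cd14 and Irf8 added. Over the 4 comparisons 20 were called (36% of all genes called), the 13 added being Clec4f, Cd5l, Vsig4, C1qb, Lyz2, Laptm5, Ptprc, Tyrobp, Slc11a1, Fcer1g, Irf8, Cd52 and Spi1. All of the added calls were positive changes. Of the added members, Spi1, Ptprc and Cd52 reached log2 1 in only 3, 3 and 2 libraries, all of them activated. They entered the test only through groups in which they were high, so their calls give no separate support for a rise. Statements below that a member was not called refer to the values as deposited.

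**Figure D1:**
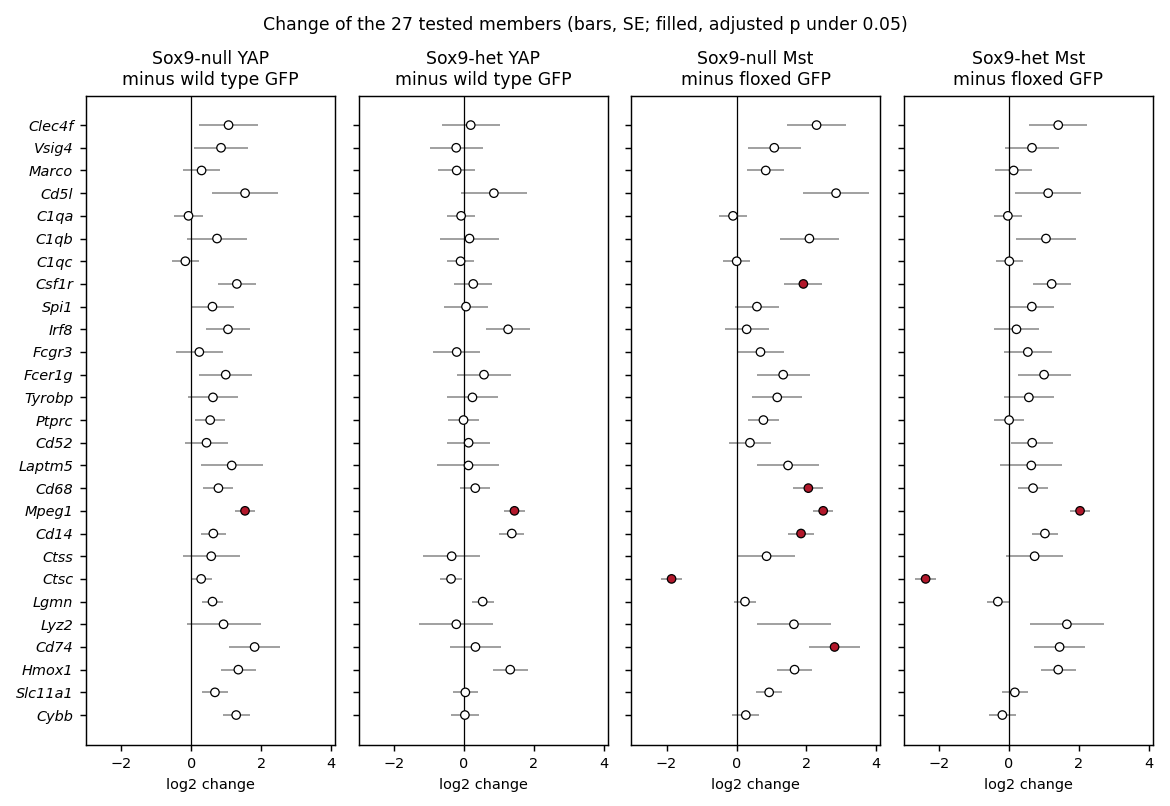
Log2 change (x axis) of the 27 tested members (rows) in the 4 activated groups, each set against its own GFP control, with bars for the SE and filled points for an adjusted p under 0.05. Mpeg1 is filled in all 4 panels and Ctsc is filled, on the negative side, in both Mst panels.

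Mpeg1 (chromosome 19, 12460779 to 12465283, plus strand; GRCm38, GENCODE M21, as for all gene positions here) encodes perforin-2, a pore-forming protein of macrophage lysosomes that damages engulfed bacteria. Its level was 6.78 and 6.43 log2 CPM in the Sox9-null YAP libraries, 6.05 and 6.98 in the Sox9-heterozygous YAP libraries, and 4.82 and 5.32 in the wild type GFP libraries. In the Mst experiment it was 7.64 and 7.41 in Sox9-null libraries, 7.02 and 7.13 in Sox9-heterozygous libraries, and 4.99 and 5.11 in floxed GFP libraries. All 8 activated libraries were above all 4 GFP libraries.

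Mpeg1 rose by 2.48 ± 0.29 log2 (5.58-fold, limma adjusted p = 4.85e-05) in the Sox9-null Mst group. It rose by 2.03 ± 0.29 (4.08-fold, adjusted p = 4.49e-04) in the Sox9-heterozygous Mst group. Under YAP S127A it rose by 1.54 ± 0.29 (2.90-fold, adjusted p = 0.00352) in the Sox9-null group and by 1.45 ± 0.29 (2.73-fold, adjusted p = 0.0157) in the Sox9-heterozygous group. Both Mst calls held in all 23 alternatives tried. The Sox9-null YAP call was lost if the wild type control's library 1 was left out (adjusted p = 0.0718) or library 1 of its own group (0.0513). The Sox9-heterozygous YAP call was lost when the wild type control's library 1 was left out (1.19, adjusted p = 0.218) or library 2 of its own group (0.98, 0.0839). It ended as well with no filter on low values (0.102), with no trend in the prior variance (0.0557) and in a fit of the YAP experiment alone (0.0703).

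Cd14 (chromosome 18, 36725067 to 36726798), the co-receptor for bacterial lipopolysaccharide, was 6.07 and 5.19 log2 CPM in the Sox9-null Mst libraries, 4.49 and 5.12 in the Sox9-heterozygous Mst libraries, and 3.66 and 3.91 in the floxed GFP libraries. With the activated YAP form it was 4.91 and 3.91 in Sox9-null libraries and 4.87 and 5.44 in Sox9-heterozygous libraries, against 3.79 and 3.78 in the wild type GFP libraries. All activated libraries were above those of their own control, and library 2 of the Sox9-null YAP group stood nearest to it. Cd14 rose by 1.84 ± 0.36 log2 (3.59-fold, limma adjusted p = 0.00437) in the Sox9-null Mst group. The other values were 1.02 (adjusted p = 0.148) in the Sox9-heterozygous Mst group, 0.63 (0.349) in the Sox9-null YAP group and 1.37 (0.0785) in the Sox9-heterozygous YAP group. Over the 4 comparisons Cd14 rose by 1.22 ± 0.22 (adjusted p = 0.00138). The Sox9-null Mst call ended without library 1 of that group (1.40, adjusted p = 0.0831). The Sox9-heterozygous YAP value passed when either Sox9-null Mst library was left out of the shared fit (adjusted p = 0.0472 and 0.0467).

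Cd68 (chromosome 11, 69664213 to 69666153) encodes a glycoprotein of macrophage lysosomes. It stood at 5.49 and 4.26 log2 CPM in the Sox9-null Mst libraries, 3.15 and 3.87 in the Sox9-heterozygous Mst libraries, and 2.61 and 3.04 in the floxed GFP libraries. In the YAP experiment it stood at 3.35 and 3.87 in Sox9-null libraries and 2.87 and 3.45 in Sox9-heterozygous libraries, against 2.35 and 3.33 in the wild type GFP libraries. Groups did not overlap with their control except for the Sox9-heterozygous YAP group. Cd68 rose in the Sox9-null Mst group by 2.05 ± 0.43 (4.16-fold, limma adjusted p = 0.00695), a call that ended without library 1 of that group (1.44, 0.134), without library 1 of the floxed control (1.84, 0.0694) or with no filter on low values (0.0581). Over the 4 comparisons it rose by 0.96 ± 0.26 (adjusted p = 0.0225), a call lost without library 1 of the wild type (0.161) or floxed (0.103) control, or without the Sox9-null YAP library 2 (0.0595). It was lost as well with no filter (0.0977), after quantile normalization (0.106) and when medians of the libraries were set equal (0.0621).

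Ctsc (chromosome 7, 88278085 to 88310888, plus strand) encodes cathepsin C, a lysosomal dipeptidyl peptidase that activates serine proteases of leukocyte granules. It was the 1 called member with lower values. Its level was 4.44 and 4.39 log2 CPM in Sox9-null Mst libraries, 4.28 and 3.49 in Sox9-heterozygous Mst libraries, and 5.87 and 6.68 in floxed GFP libraries. After YAP S127A it was 6.41 and 6.68 in Sox9-null libraries and 5.83 and 5.96 in Sox9-heterozygous libraries, against 6.07 and 6.46 in wild type GFP libraries. The 4 activated Mst libraries were below all 8 others.

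Ctsc fell by 2.39 log2 (SE 0.30, limma adjusted p = 1.82e-04) in the Sox9-heterozygous Mst group and by 1.86 (SE 0.30, adjusted p = 0.00103) in the Sox9-null Mst group. Both calls held in all 23 alternatives tried. Under YAP S127A its change was 0.28 (adjusted p = 0.668) in the Sox9-null group and -0.37 (adjusted p = 0.763) in the Sox9-heterozygous group. The difference between experiments was -2.14 ± 0.43 for the Sox9-null groups (adjusted p = 0.0518) and -2.02 ± 0.43 for the Sox9-heterozygous groups (adjusted p = 0.0854), neither of which passed. That of the Sox9-null groups passed with a replicate block (0.0352), with 1 or 4 CPM added before the log (0.0408 and 0.0398) and without library 1 of the floxed control (0.0286). It passed too without library 1 or 2 of the Sox9-heterozygous Mst group (0.023 and 0.0221), and that of the Sox9-heterozygous groups passed without library 1 of that group (0.0352). These differences rest on equal treatment of all libraries of an experiment when the controls were made equal, which the values do not show. Ctsc overlaps the noncoding gene Gm26522 on the opposite strand, and the sources used here do not say whether reads keep strand.

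**Figure D2:**
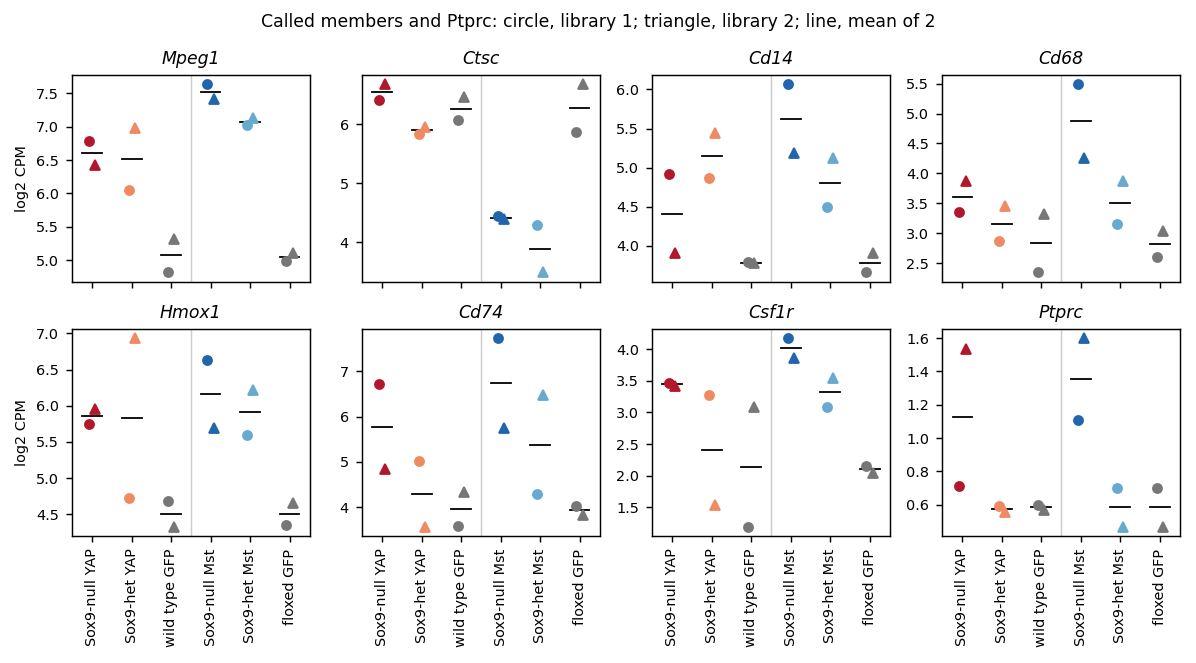
Level (log2 CPM, y axis, a separate scale per gene) of the 7 members called in at least 1 comparison and of Ptprc, by group. Circles are library 1, triangles library 2 and lines the mean of 2; Mpeg1 separates activated from GFP libraries, and Ctsc is low in the 4 activated Mst libraries.

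Among the other lysosomal and antigen presentation genes, Cd74 (chromosome 18, 60803848 to 60812652), the invariant chain of MHC class II molecules, was 7.73 and 5.75 log2 CPM in Sox9-null Mst libraries, 4.29 and 6.47 in Sox9-heterozygous Mst libraries, and 4.04 and 3.83 in floxed GFP libraries. In hepatocytes given YAP S127A it was 6.71 and 4.84 in Sox9-null libraries and 5.01 and 3.57 in Sox9-heterozygous libraries, against 3.58 and 4.34 in wild type GFP libraries. Pairs of activated libraries differed by more than 1 log2 unit, while GFP pairs lay closer together. Cd74 rose in the Sox9-null Mst group (2.80 ± 0.73, limma adjusted p = 0.0252) and over the 4 comparisons (1.60 ± 0.44, adjusted p = 0.0243). The second was lost without either floxed GFP library, the first wild type GFP library or library 1 of either YAP group (adjusted p from 0.0537 to 0.136), and also with no filter (0.134), after quantile normalization (0.0553) and with no trend (0.058). The first call ended without library 1 of the Sox9-null Mst group (1.82, adjusted p = 0.286) or either floxed GFP library (0.0868 and 0.114), after quantile normalization (0.0546), with no filter (0.166), with no trend (0.0657) and in a fit of the Mst experiment alone (0.0951). None of the 5 tested MHC class II genes, the partners of Cd74, was called in any comparison with a control (limma), and 0 had an unadjusted p under 0.05. All 5 had positive changes in the Sox9-null Mst, Sox9-heterozygous Mst and Sox9-null YAP groups (medians 1.48, 0.70 and 0.91), and 2 did in the Sox9-heterozygous YAP group (median -0.03). The 8 class II genes in the table summed to 79.9 and 25.6 CPM in Sox9-null Mst libraries and 15.2 and 71.1 in Sox9-heterozygous Mst libraries, against 20.2 and 13.8 in floxed GFP libraries. With the activated YAP form they summed to 66.3 and 15.1 in Sox9-null libraries and 20.6 and 13.9 in Sox9-heterozygous libraries, against 13.0 and 23.2 in wild type GFP libraries. In all 6 groups the library with the higher sum was also the one with the higher Cd74 value.

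Lgmn, which encodes the asparaginyl protease legumain, ranged from 5.38 to 6.95 log2 CPM over all 12 libraries and was not called (changes from -0.32 to 0.61). The cathepsin S gene Ctss, which encodes the protease that trims the invariant chain, and the lysozyme gene Lyz2 were not called either. Lyz2 was 6.35 and 2.66 in the Sox9-null Mst libraries, 3.17 and 5.85 in the Sox9-heterozygous Mst libraries, and 2.37 and 3.35 in the floxed GFP libraries. Lyz2 changed by 1.64 in the Sox9-null Mst group (limma adjusted p = 0.445) and by 1.65 in the Sox9-heterozygous Mst group (0.496), and with deviations before rescaling both passed (0.0208 and 0.0262).

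Csf1r (chromosome 18, 61100598 to 61132149), the growth factor receptor of macrophages, was 4.17 and 3.85 log2 CPM in the Sox9-null Mst libraries, 3.09 and 3.54 in the Sox9-heterozygous Mst libraries, and 2.15 and 2.05 in the floxed GFP libraries. In the YAP experiment it was 3.47 and 3.42 in Sox9-null libraries and 3.27 and 1.55 in Sox9-heterozygous libraries, against 1.20 and 3.08 in wild type GFP libraries. The wild type GFP libraries spanned nearly the whole range of the YAP experiment. Csf1r rose in the Sox9-null Mst group (1.91 ± 0.54, 3.76-fold, limma adjusted p = 0.0417) and over the 4 comparisons (1.18 ± 0.33, adjusted p = 0.0266). The first call remained in 12 of 23 alternatives. It was lost without either library of the Sox9-null Mst group (0.22 and 0.0785), the floxed GFP control (0.14 and 0.168) or the Sox9-null YAP group (0.0678 and 0.0682). It was lost too with no filter (0.186), library medians equalised (0.0791), quantile normalization (0.105), equal linear sums (0.0696) and no trend (0.0737). The second was lost without library 1 of the wild type control (0.71, adjusted p = 0.204), library 1 of the Sox9-heterozygous YAP group, or any library of the floxed GFP and Sox9-null YAP groups, and also with no filter (0.122), library medians equalised (0.0568) and quantile normalization (0.0951). In the Sox9-null YAP group the value of 1.30 (adjusted p = 0.178) passed without library 2 of the wild type control (2.24, adjusted p = 0.0319). Csf1r overlaps Hmgxb3 on the other strand. The PU.1 gene Spi1 was between -0.65 and 1.29 in all libraries, and the monocyte and macrophage factor gene Irf8 between 0.66 and 3.15, and neither was called.

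Ligands of CSF1R and other signals to macrophages were examined as a separate list of 22 gene symbols, of which 19 were in the table and 16 were tested. Which cells made these transcripts was not tested. In the Sox9-null Mst group 7 of the 16 rose and in the Sox9-heterozygous Mst group 5. In the Sox9-null YAP group 6 rose and in the Sox9-heterozygous YAP group 2, and none fell in any of the 4 (the share of all genes called in each comparison is given above). Csf1 was 6.63 and 6.61 log2 CPM in the Sox9-null YAP libraries, 5.0 and 4.69 in the Sox9-heterozygous YAP libraries, and 4.29 and 4.01 in the wild type GFP libraries. In the Mst experiment it was 5.71 and 5.50 in Sox9-null libraries, 5.58 and 5.40 in Sox9-heterozygous libraries, and 3.93 and 4.32 in floxed GFP libraries. Its 8 activated libraries were above the 4 GFP libraries. Csf1 rose by 2.47 ± 0.24 (limma adjusted p = 1.01e-05) in the Sox9-null YAP group, by 1.48 ± 0.24 (9.04e-04) in the Sox9-null Mst group and by 1.37 ± 0.24 (0.00271) in the Sox9-heterozygous Mst group. In the Sox9-heterozygous YAP group its value was 0.70 ± 0.24 (0.219). Csf1 was also higher in Sox9-null than in Sox9-heterozygous YAP hepatocytes (1.77 ± 0.24, adjusted p = 0.00357), the 1 gene of this list called for loss of the second Sox9 allele. Between Sox9-null and Sox9-heterozygous Mst hepatocytes its value was 0.12 (adjusted p = 1).

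The other CSF1R ligand gene, Il34, was between 0.59 and 2.10 log2 CPM and was not called. Mfge8, which encodes a bridging protein that marks dying cells for uptake, rose in all 4 activated groups, by 4.92 ± 0.30 in the Sox9-null Mst group (limma adjusted p = 1.10e-07), 4.23 in the Sox9-heterozygous Mst group, 3.05 in the Sox9-null YAP group and 2.14 in the Sox9-heterozygous YAP group. Gas6, the ligand of the uptake receptors Axl and Mertk, rose in 3 groups, by 3.00 in the Sox9-null Mst group, 2.12 in the Sox9-heterozygous Mst group and 2.42 in Sox9-null YAP hepatocytes. The monocyte chemoattractant gene Ccl2 rose by 2.57, 1.70 and 1.43 in the same 3 groups. The chemokine gene Cx3cl1 rose in both YAP groups and in the Sox9-null Mst group (1.79 to 2.54), and Ccl9 in both Mst groups (1.76 and 2.18). Cx3cl1 had the same value, 1.64 log2 CPM, in all 4 GFP libraries. Whether that value is a floor is not known, and the size of its changes depends on it.

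The Kupffer cell identity genes had no call in any comparison of the deposited values over all libraries. With deviations before rescaling, limma called Cd5l (adjusted p = 4.27e-04), Clec4f (6.30e-04), Marco (0.0103) and Vsig4 (0.0238) in the Sox9-null Mst group, Clec4f (0.0156) in the Sox9-heterozygous Mst group, and Cd5l (0.0164) and Clec4f (0.0397) in the Sox9-null YAP group. Clec4f (chromosome 6, 83644542 to 83656187, minus strand), a lectin gene of Kupffer cells, was 5.31 and 3.12 log2 CPM in Sox9-null Mst libraries, 2.37 and 4.29 in Sox9-heterozygous Mst libraries, and 1.79 and 2.06 in floxed GFP libraries. Under YAP S127A it was 3.56 and 2.54 in Sox9-null libraries and 2.36 and 2.0 in Sox9-heterozygous libraries, against 0.45 and 3.53 in wild type GFP libraries. The activated Mst libraries were above the floxed GFP libraries, whereas the wild type GFP pair spanned most YAP libraries. Its change was 2.29 ± 0.83 in the Sox9-null Mst group (limma adjusted p = 0.123), 1.40 in the Sox9-heterozygous Mst group (0.455), 1.07 in the Sox9-null YAP group (0.525) and 0.20 in the Sox9-heterozygous YAP group (0.975).

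Cd5l, which encodes a secreted scavenger receptor protein of tissue macrophages, was 6.56 and 4.01 log2 CPM in Sox9-null Mst libraries, 2.51 and 4.60 in Sox9-heterozygous Mst libraries, and 2.24 and 2.63 in floxed GFP libraries. With the activated YAP form it was 5.01 and 3.11 in Sox9-null libraries and 3.87 and 2.88 in Sox9-heterozygous libraries, against 0.96 and 4.08 in wild type GFP libraries. Only the Sox9-null Mst pair stood above both libraries of its control, at 2.85 ± 0.94 (limma adjusted p = 0.0822). Vsig4, the complement receptor of Kupffer cells, was 3.53 and 0.89 in Sox9-null Mst libraries, 0.87 and 2.70 in Sox9-heterozygous Mst libraries and 0.77 and 1.49 in floxed GFP libraries. In the YAP experiment it was 2.13 and 1.95 in Sox9-null libraries and 1.15 and 0.79 in Sox9-heterozygous libraries, against 0.29 and 2.09 in wild type GFP libraries. Each activated pair overlapped with its control, while the Sox9-null YAP pair was above the Sox9-heterozygous YAP pair. The scavenger receptor gene Marco was 2.03 and 1.19 in Sox9-null Mst libraries, 0.92 and 0.89 in Sox9-heterozygous Mst libraries, and 0.37 and 1.18 in floxed GFP libraries. Under YAP S127A Marco was 1.23 and 0.97 in Sox9-null libraries and 0.31 and 0.89 in Sox9-heterozygous libraries, against 1.56 and 0.05 in wild type GFP libraries, so that the wild type pair held the lowest value of all. Among the 4 tested identity genes, limma gave 0 calls in each comparison and 1 or more unadjusted p under 0.05 only in the Sox9-null Mst group and over the 4 comparisons (Clec4f and Cd5l each time).

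The 3 chains of C1q, the recognition protein of the classical complement pathway, are encoded side by side on chromosome 4 (C1qb at 136880129 to 136886187, C1qc at 136889804 to 136893065, C1qa at 136895917 to 136898803). C1qb was 5.31 and 2.07 log2 CPM in Sox9-null Mst libraries, 1.57 and 3.75 in Sox9-heterozygous Mst libraries, and 1.12 and 2.10 in floxed GFP libraries. C1qa stayed between 0.88 and 1.41 and C1qc between 0.76 and 1.31 in all 12 libraries. In library 1 of the Sox9-null Mst group, where C1qb stood highest, C1qa was at 1.08 and C1qc at 1.11. C1qa had identical values in both libraries of 2 groups and C1qc in 3 groups. None of the 3 was called, and C1qb passed with deviations before rescaling in the Sox9-null Mst group (2.08, limma adjusted p = 0.00134).

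**Figure D3:**
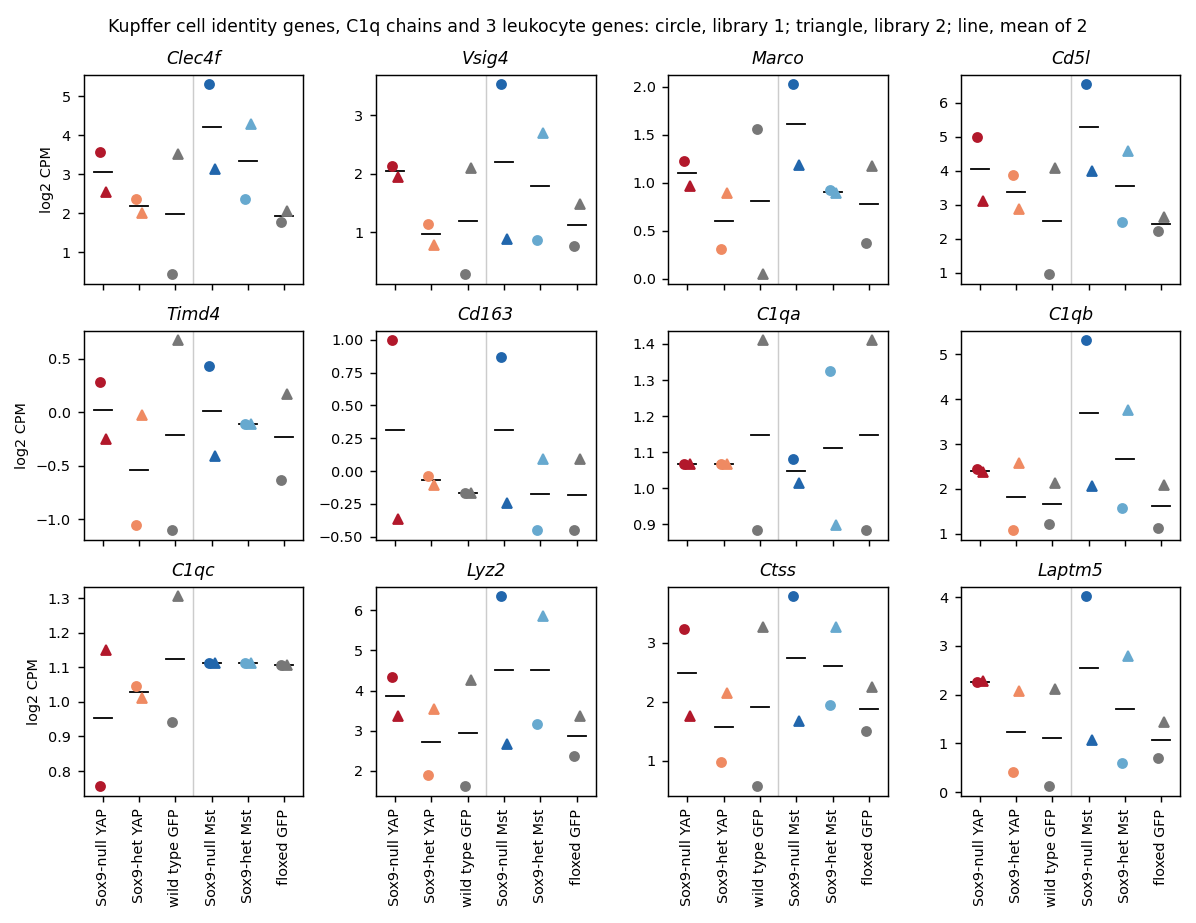
Level (log2 CPM, y axis, a separate scale per gene) of the 6 Kupffer cell identity genes, the 3 C1q chains, Lyz2, Ctss and Laptm5, by group. Circles are library 1, triangles library 2 and lines the mean of 2; for Clec4f, Cd5l, C1qb and Lyz2, library 1 of the Sox9-null Mst group stands highest, and C1qa and C1qc stay near 1.

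Ptprc, the gene of the antigen the cells were sorted against, was low. It was 1.11 and 1.60 log2 CPM in Sox9-null Mst libraries, 0.70 and 0.47 in Sox9-heterozygous Mst libraries, and 0.70 and 0.47 in floxed GFP libraries. The Sox9-heterozygous Mst and floxed GFP values were the same. After YAP S127A it was 0.71 and 1.53 in Sox9-null libraries and 0.59 and 0.56 in Sox9-heterozygous libraries, against 0.60 and 0.57 in wild type GFP libraries. Both Sox9-null pairs were above their control and their Sox9-heterozygous group, but no difference passed on the deposited values (0.77, limma adjusted p = 0.363 in the Sox9-null Mst group and 0.54, adjusted p = 0.538 in the Sox9-null YAP group). With deviations before rescaling, Ptprc passed against the control in the Sox9-null Mst group (limma adjusted p = 0.00536) and the Sox9-null YAP group (0.0306), in Sox9-null against Sox9-heterozygous Mst hepatocytes (0.0421) and over the 4 comparisons (0.0261). Ptprc met the filter only through 3 Sox9-null libraries, the groups called here, so these calls give no separate support for a rise. The leukocyte surface gene Cd52 was between -0.47 and 1.22, and Laptm5, a lysosomal protein gene of haematopoietic cells, was between 0.12 and 4.01, with no call. The signalling adaptors Tyrobp (0.29 to 2.73) and Fcer1g (-0.23 to 2.87) and the Fc receptor gene Fcgr3 (-0.56 to 1.5) had no call either.

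Among genes of haem, iron and oxidant handling, Hmox1 (chromosome 8, 75093621 to 75100589), which encodes the enzyme that degrades haem, was 6.63 and 5.69 log2 CPM in Sox9-null Mst libraries, 5.59 and 6.22 in Sox9-heterozygous Mst libraries, and 4.35 and 4.66 in floxed GFP libraries. In hepatocytes given YAP S127A it was 5.75 and 5.96 in Sox9-null libraries and 4.73 and 6.93 in Sox9-heterozygous libraries, against 4.69 and 4.33 in wild type GFP libraries. All 8 activated libraries were above the 4 GFP libraries. Hmox1 passed in none of the 4 comparisons taken singly (1.66, limma adjusted p = 0.0549 in the Sox9-null Mst group, 1.40, 0.153 in the Sox9-heterozygous Mst group, 1.34, 0.124 in the Sox9-null YAP group and 1.32, 0.301 in the Sox9-heterozygous YAP group). Over the 4 together it rose by 1.43 ± 0.31 (adjusted p = 0.00445), and that call held in all 22 alternatives. The Sox9-heterozygous YAP pair was 2.20 apart for Hmox1, and without its library 1 from the shared fit all 4 comparisons passed (adjusted p = 0.00436, 0.0181, 0.0162 and 0.00712 in the order just given). Without its library 2 the same held for the first 3 (0.00451, 0.0186 and 0.0166). The Sox9-null Mst value passed too without either Sox9-heterozygous Mst library (0.0441 and 0.0436) or library 2 of its own group (0.0325), in a fit of the Mst experiment alone (0.0393), with a replicate block (0.0312) and with deviations before rescaling (0.0489). Cybb, the membrane subunit gene of the phagocyte NADPH oxidase, was 6.08 and 5.58 in Sox9-null YAP libraries, 4.61 and 4.54 in Sox9-heterozygous YAP libraries, and 4.41 and 4.68 in wild type GFP libraries. It stood apart in the Sox9-null YAP pair (1.28 ± 0.39, adjusted p = 0.0594 against the control), without passing. Cybb passed when either library of the Sox9-null Mst group (0.0172 and 0.0167) or of the floxed GFP control (0.0489 and 0.0495) was left out, in a fit of the YAP experiment alone (0.0211) and with deviations before rescaling (0.0011). The phagosomal metal transporter gene Slc11a1 stayed between 1.99 and 3.56.

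Loss of the second Sox9 allele gave no call among the 27 tested members. In Sox9-null against Sox9-heterozygous YAP hepatocytes limma called 0 (0.169% of all genes called), with an unadjusted p under 0.05 for 2, Cybb (1.26) and Ctsc (0.65). In Sox9-null against Sox9-heterozygous Mst hepatocytes it called 0 (0.0468% of all genes called), with 2 at an unadjusted p under 0.05, Cd68 (1.37) and Cd14 (0.82). With deviations before rescaling, Cybb (adjusted p = 0.00915) and Csf1r (0.045) were called in the YAP experiment (4.55% of all genes called), and Cd68 (0.0123) and Ptprc (0.0421) in the Mst experiment (1.89% of all genes called). Without a filter, 28 of 32 members had positive changes in the YAP experiment (median 0.55, against 63.3% of all genes and 0.08) and 26 in the Mst experiment (median 0.47, against 56% and 0.04). No member was called for a difference between experiments in activation of the Sox9-heterozygous groups (0.197% of all genes called, 1 at an unadjusted p under 0.05, Ctsc). The same held for the Sox9-null groups (0.272% of all genes called, 3 at an unadjusted p under 0.05, Ctsc, Cd14 and Mpeg1) and for the Sox9 loss (0% of all genes called, 1 at an unadjusted p under 0.05, Cd14 at 1.56). With deviations before rescaling, the differences between experiments called Ctsc for the Sox9-heterozygous groups (0.00282, 5.91% of all genes called), and Ctsc (0.00134) and Cd68 (0.0253) for the Sox9-null groups (5.51% of all genes called).

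The 2 libraries of a group differed in the same direction for many members. In the Sox9-null Mst group 28 of the 32 were higher in library 1 and 1 was higher in library 2, against 57.1% of all tested genes higher in library 1. The 1 higher in library 2 was Ptprc (1.11 and 1.60 log2 CPM). Its pair difference had the same sign as that of Clec4f in 1 of the 6 groups. In the Sox9-heterozygous Mst group 24 were higher in library 2 and 5 in library 1, against 40.8% of all tested genes higher in library 1. Among floxed GFP libraries 22 were higher in library 2 and 8 in library 1, against 49.4% of all tested genes higher in library 1. Since the 3 pair differences of a gene sum to about 0 in the Mst experiment, these 3 counts are not separate observations, and which of the 3 pairs differed before the means were made equal cannot be told apart. Of the YAP pairs, 23 members were higher in library 1 in the Sox9-null group (45.7% of all tested genes), 16 in Sox9-heterozygous hepatocytes (59.1%) and 8 in the wild type GFP pair (46.5%), where 23 were higher in library 2.

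Calls moved with these pairs. In library 2 of the Sox9-null Mst group most members were lower than in library 1. Without library 2 the calls gained in that group were Clec4f (change 3.38), Cd5l (4.12), C1qb (3.71), Lyz2 (3.49) and Hmox1, and Csf1r was lost. Without library 1 of that group the calls of Mpeg1 and Ctsc remained and those of the other members were lost. The share of all genes called in such fits is not given here. Whether the members or the whole fit moved can therefore not be told. Cd5l in the Sox9-null Mst group passed also without either wild type GFP library (0.046 and 0.0459) or either Sox9-heterozygous Mst library (0.0481 and 0.0481). Over the 4 comparisons, Clec4f passed without library 2 of the wild type control (2.01, 0.0133), library 2 of the Sox9-null Mst group (0.0348) or library 1 of the Sox9-heterozygous Mst group (0.0492). Over the same 4, Cd5l passed without the same 3 libraries (0.0155, 0.0159 and 0.0287), C1qb without library 2 of the Sox9-null Mst group (0.0194) and Fcer1g without library 1 of the Sox9-heterozygous Mst group (0.0288).

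**Figure D4:**
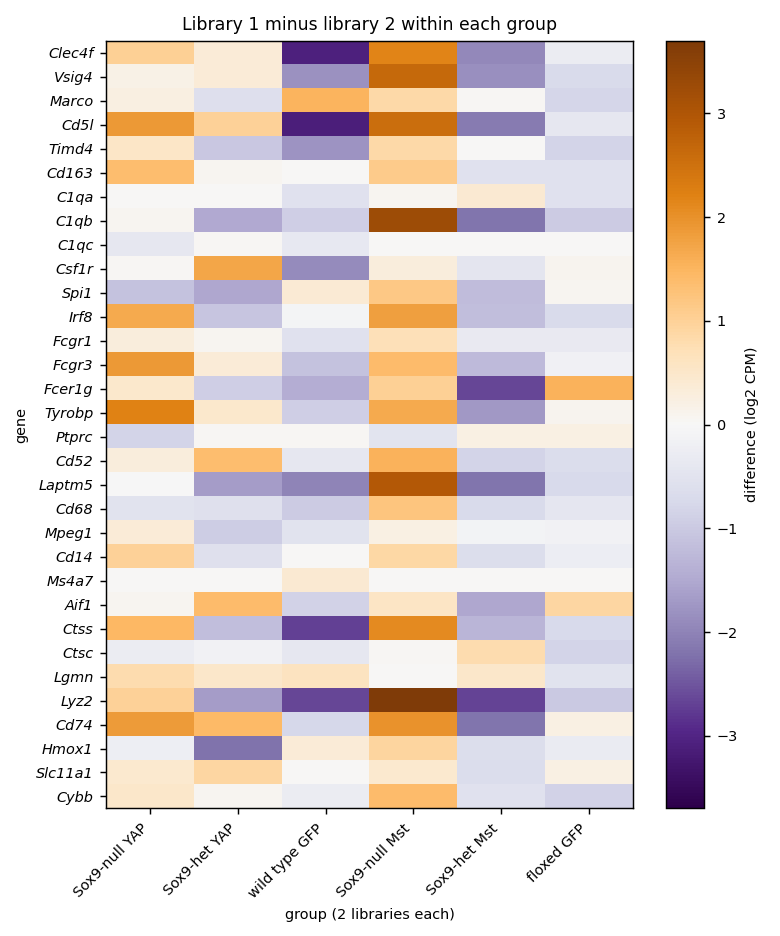
Library 1 minus library 2 (colour, log2 CPM) of each group (columns) for the 32 members (rows). The Sox9-null Mst column is positive for 28 members and the Sox9-heterozygous Mst column is negative for 24; the 3 Mst columns sum to about 0 for each gene, and sizes carry each gene's own factor.

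The summed level of the 6 identity genes was 152.5 and 30.6 CPM in Sox9-null Mst libraries, 16.3 and 54.1 in Sox9-heterozygous Mst libraries, and 12.6 and 17.6 in floxed GFP libraries. Under YAP S127A it was 53.9 and 21.9 in Sox9-null libraries and 24.7 and 16.9 in Sox9-heterozygous libraries, against 8.85 and 36.2 in wild type GFP libraries. The sum over all 32 members was 1133 and 531 CPM in Sox9-null Mst libraries and 388 and 623 in Sox9-heterozygous Mst libraries, against 267 and 371 in floxed GFP libraries. In the YAP experiment it was 732 and 514 in Sox9-null libraries and 421 and 550 in Sox9-heterozygous libraries, against 289 and 375 in wild type GFP libraries. A few genes with high values carry this sum. In library 1 of the wild type GFP control, Ctsc (6.07 log2 CPM) and Lgmn (6.26) were each a larger part of it than the 6 identity genes together. The sum therefore does not stand for Kupffer cell genes alone. All 8 activated libraries were above the 4 GFP libraries in this sum, but not without Mpeg1. Without it the sum was 933 and 361 CPM in Sox9-null Mst libraries and 258 and 483 in Sox9-heterozygous Mst libraries, against 235 and 337 in floxed GFP libraries, so the Sox9-heterozygous pair overlapped with the control. With YAP S127A it was then 622 and 428 in Sox9-null libraries and 354 and 423 in Sox9-heterozygous libraries, against 261 and 335 in wild type GFP libraries.

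Markers of other cell types moved beside these members. The 18 endothelial markers summed to 474.6 to 510.7 CPM in Sox9-null Mst libraries, 454.4 to 571.1 in Sox9-heterozygous Mst libraries and 62.7 to 67.9 in floxed GFP libraries. In the YAP experiment they summed to 212.9 to 429.2 in Sox9-null libraries, 148.8 to 239.5 in Sox9-heterozygous libraries and 42.0 to 108.9 in wild type GFP libraries. Of 17 tested endothelial markers 11, 9, 6 and 2 rose in the Sox9-null Mst, Sox9-heterozygous Mst, Sox9-null YAP and Sox9-heterozygous YAP groups. In the same order, 6.88%, 3.45%, 6.64% and 1.4% of all tested genes were higher, which applies to the other lists below too. The 11 cholangiocyte markers in the table summed to 3697 to 3832 CPM in Sox9-null Mst libraries, 3178 to 3287 in Sox9-heterozygous Mst libraries and 240.1 to 253.2 in floxed GFP libraries. Under YAP S127A they summed to 1342 to 1460 in Sox9-null libraries, 1848 to 2528 in Sox9-heterozygous libraries and 172.9 to 372.6 in wild type GFP libraries. Without Sox9 and Spp1, both on this list, the other 9 summed to 92.4 to 210.6 in activated libraries and 51.0 to 72.4 in GFP libraries. Of 7 tested cholangiocyte markers, Spp1 and the fibrocystin gene Pkhd1 rose in all 4 activated groups. Epcam rose in the Sox9-heterozygous YAP group (1.81, limma adjusted p = 0.0349). It had the same value, 0.83 log2 CPM, in all 4 GFP libraries and met the filter only through activated libraries. Whether 0.83 is a floor is not known, and the size of the Epcam change depends on it. Of the Mst groups the heterozygous one had higher Sox9 (2.5) and the null one lower Sox9 (-2.38) than the floxed control, both called. Of 10 tested stellate cell and fibroblast markers 2, 1, 0 and 0 rose by limma in the same order of groups, with 4, 3, 3 and 0 at an unadjusted p under 0.05. The 7 T and NK cell markers stayed at a sum of 2.37 to 2.98 CPM, and the 8 neutrophil markers at 3.19 to 5.48, over all 12 libraries, with none tested because none passed the filter. The part of other cells in the values of the members was not tested.

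**Figure D5:**
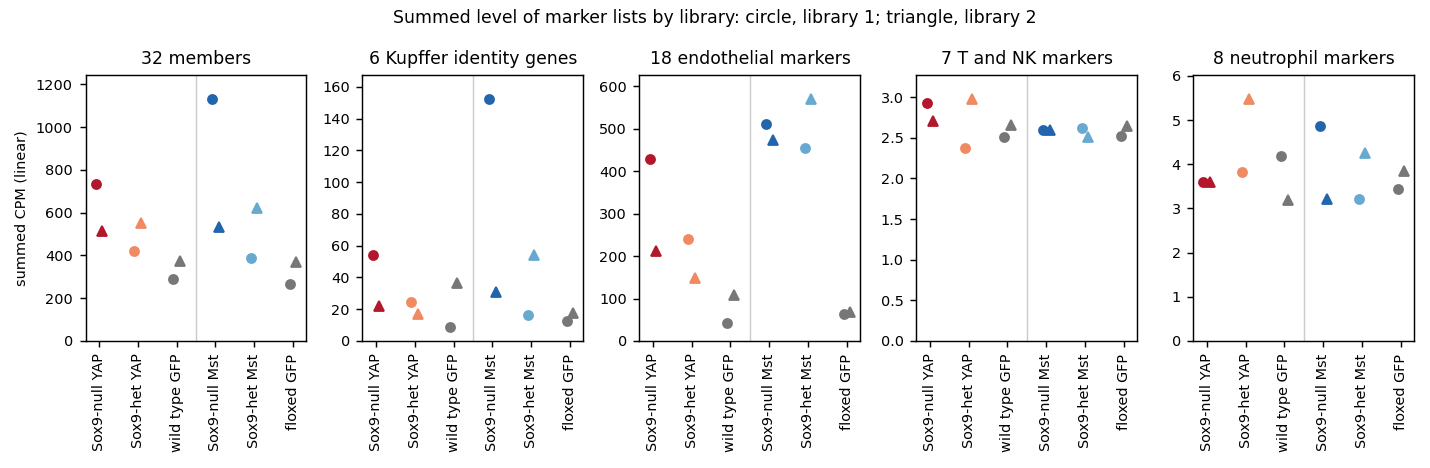
Summed linear CPM (y axes from 0) of the 32 members, the 6 Kupffer cell identity genes and markers of endothelial cells, T and NK cells and neutrophils, by group. Circles are library 1 and triangles library 2; the T and NK cell and neutrophil sums stay below 6 in every library.

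A further 58 macrophage genes outside the 32 were examined, of which 56 were in the table and 31 were tested. In the Sox9-null Mst group 4 rose (6.88% of all tested genes higher) and in the Sox9-heterozygous Mst group 2 rose (3.45% of all higher). In the Sox9-null YAP group 2 rose, 6.45% of the 31, near the 6.64% of all genes that were higher. In the Sox9-heterozygous YAP group 0 were called (1.57% of all genes called), with 5 at an unadjusted p under 0.05 (limma). Sirpa, an inhibitory receptor gene of myeloid cells, was 8.51 and 7.61 log2 CPM in Sox9-null Mst libraries, 6.89 and 7.53 in Sox9-heterozygous Mst libraries and 4.50 and 4.77 in floxed GFP libraries, and it rose by 3.42 ± 0.33 and by 2.58 ± 0.33 in the 2 activated groups (adjusted p = 6.95e-06 and 1.84e-04). The mannose receptor gene Mrc1, carried by both macrophages and liver endothelium, rose in both Mst groups (2.69 and 2.47) and in the Sox9-null YAP group (2.36). Id3 rose in both Sox9-null groups (1.72 in the Mst experiment and 1.5 in the YAP experiment) and the receptor gene Tlr2 rose in the Sox9-null Mst group (1.31). The pan-macrophage marker Adgre1, which encodes F4/80, lay between 0.70 and 1.88 in activated libraries and between 0.23 and 1.44 in GFP libraries.

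Of 12 genes of lipid-associated macrophages, 11 were in the table and 10 were tested. In the Sox9-null Mst group 5 rose (6.88% of all tested genes higher) and in the Sox9-heterozygous Mst group 4 (3.45% of all higher). In each YAP group 2 rose (6.64% of all genes higher in the Sox9-null and 1.4% in the Sox9-heterozygous group). Osteopontin (Spp1), which bile duct cells also make, rose by 4.41 in the Sox9-null Mst group, 4.17 in the Sox9-heterozygous Mst group, 2.75 in the Sox9-null YAP group and 3.50 in the Sox9-heterozygous YAP group. The tetraspanin gene Cd63 rose by 3.61, 2.77, 3.45 and 2.41 in the same order of groups. Lipoprotein lipase (Lpl) rose by 4.08 and 3.84 and the tetraspanin gene Cd9 by 1.56 and 1.23 in the Sox9-null and Sox9-heterozygous Mst groups. The glycoprotein gene Gpnmb rose by 2.41 (adjusted p = 0.0138) in Sox9-null Mst hepatocytes, at 6.22 and 4.51 log2 CPM against 3.15 and 2.76 in the floxed GFP control.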

How the data were processed

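The 12 libraries were made with the Ion AmpliSeq mouse transcriptome panel and read on an Ion GeneStudio S5 Plus, per the labels. The authors deposited log2 CPM values, which a label also calls RPM. Which aligner, counter, build and later adjustment were used is not stated there, and counts were not recovered. The values show that control means, and in the Mst experiment the means of same-numbered libraries, are equal gene by gene, and that deviations were rescaled. Group means of the 6 groups were fitted here with limma 3.58.1 in R 4.3.3 (trended prior variance) to genes reaching a log2 of 1 in 2 or more libraries, with Benjamini-Hochberg adjustment over 10681 genes, two-sided. The fit was tested on simulated data with independent noise for each library. Those data did not hold the equal means of controls and of same-numbered libraries, so that test does not bear on these limits. Identical means equal to within 0.000001. The members and lists were chosen with earlier results of these data known. All members are described. From the other macrophage lists, up to 6 genes called between 2 groups are named per list by adjusted p, plus Csf1 and Il34. A result among these genes is not reported here. Alternatives were other filters, added constants, scalings, fits, a replicate block and leaving out each library. Gene positions are from GENCODE M21 (GRCm38), and the authors' build may differ.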

Additional observations from a re-analysis of the deposited data

How the results depend on the processing

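Counts of members called were recomputed with other filters, scalings, fits and libraries. For YAP S127A against the wild type control, 0 were called in the Sox9-heterozygous group with no filter, with no trend in the prior variance or in a fit of the experiment alone (1 as reported), and 2 in the Sox9-null group in a fit of the experiment alone. In the Sox9-null Mst group 3 of 6 remained with no filter. Over the 4 comparisons 4 of 7 remained with no filter or after quantile normalization. With the deviations before rescaling, members called numbered 13 and 3 in the Sox9-null and Sox9-heterozygous YAP groups, 18 and 7 in the Sox9-null and Sox9-heterozygous Mst groups, 20 over the 4 comparisons, 2 and 2 for Sox9 loss under YAP S127A and after Mst deletion, and 2 and 1 for the differences between experiments of the Sox9-null and Sox9-heterozygous groups. All genes called then numbered 2964, 1237, 2815 and 2116 in the 4 activated groups, in place of 760, 168, 829 and 454. Most members had a factor above the median of all genes, so their gain in calls cannot be set directly against that of all genes. For the difference of the Sox9-null groups, 1 member (Ctsc) was called with 1 or 4 CPM added and with a replicate block, which moved no other count of members by over 1.5 times; no label says that a number marks a shared animal or day. Deviations of same-numbered libraries had correlations of -0.117 to -0.063 in the YAP experiment and -0.071 to 0.091 across experiments, while those of the Mst experiment (-0.644 to -0.315) follow from the equal means of its same-numbered libraries and do not bear on pairing. Leaving out 1 library, with the lone library of its group assumed to vary like the others, gave 0 to 2 calls in each YAP group, 2 to 3 in the Sox9-heterozygous Mst group, 2 to 10 in the Sox9-null Mst group (lowest without its library 1, highest without its library 2), 4 to 10 over the 4 comparisons (lowest without library 1 of either control), 0 to 0 for each Sox9 loss and its difference, and 0 to 1 for the other 2 differences. Of the changes of single members under all alternatives, 5846 stayed on their side of the threshold, 52 lost and 94 gained a call, and no called value changed sign. Most of the 5846 were values not called in either fit, so that count does not measure how stable the calls were. In the Sox9-null Mst group the Csf1r call held in 12 of 23 alternatives and the Cd74 call in 16, while the Mpeg1 and Ctsc calls held in all 23. With quantile normalization the median change of all genes was -0.08, -0.05, -0.08 and -0.05 in the Sox9-null YAP, Sox9-heterozygous YAP, Sox9-null Mst and Sox9-heterozygous Mst groups, in place of 0.21, 0.07, 0.17 and 0.08, and that of the tested members was 0.35, -0.10, 0.68 and 0.39, in place of 0.74, 0.13, 1.08 and 0.66. Read depth is unknown, so members near log2 1 cannot be told from 0 reads.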
